A study of Mus musculus with 14 samples.

Results

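Branched-chain amino acid breakdown was followed through 10 genes, chosen by function: the muscle transaminase Bcat2, the branched-chain ketoacid dehydrogenase subunits Bckdha, Bckdhb and Dbt, their kinase Bckdk, and the downstream enzymes Ivd, Mccc1, Hibch, Hibadh and Acadsb. They are 10 of the 52550 genes in the count table, and all 10 passed the filter on low counts that left 11088 genes for testing. The tissue was triceps of 14 male mice, read at the 3′ ends of transcripts with QuantSeq FWD libraries. FLExDUX4 mice carry a human DUX4 transgene and model facioscapulohumeral muscular dystrophy, a wasting disease linked to expression of DUX4 in muscle. In the FLEx design, Cre recombinase turns the transgene on. The WT mice do not carry the transgene. Mice of both genotypes either had 6 weeks of wheel running or were no-running controls. The groups were 3 WT controls, 4 WT runners, 3 FLExDUX4 controls and 4 FLExDUX4 runners, each numbered in accession order. The Cre driver, if any, the inducing agent, the age and the strain are not given in the sources used here. By its title, the study asked what aerobic exercise does in this model.

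Leucine, isoleucine and valine are unusual among amino acids in that muscle, rather than liver, begins their breakdown. A mitochondrial transaminase moves their amino group to α-ketoglutarate, and the branched-chain ketoacid dehydrogenase complex then removes the carboxyl group of the ketoacids in a step that cannot be reversed. The complex is switched off when its kinase phosphorylates the E1α subunit and switched on by a phosphatase, so its activity is not set by transcript levels alone, and exercise is known to raise it. Separate branches then take the carbon of leucine to acetyl-CoA and acetoacetate, that of valine to propionyl-CoA, and that of isoleucine to both acetyl-CoA and propionyl-CoA.

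Bckdha and Bckdhb encode the α and β chains of the same E1 enzyme, and Bckdha was called for running in WT mice while Bckdhb was not, so their promoters are shown side by side. Both stretches are RefSeq sequence of GRCm38.p6, written 5′ to 3′ on the coding strand, from 250 bases before to 50 bases after the RefSeq start. The Bckdha stretch is chr7:25658712-25659011 on the minus strand and the Bckdhb stretch is chr9:83924887-83925186 on the plus strand. The RefSeq starts used here are not the gene starts of GENCODE M21, and 270 of the 300 bases lie within the GENCODE gene for Bckdha, against 42 for Bckdhb. Capitals mark matches to 5 short motifs, searched on both strands: the GC box GGGCGG, the CCAAT box, the E box CACGTG, the nuclear receptor half-site AGGTCA and the longer ERR element TCAAGGTCA, which contains the half-site.
Bckdha promoter: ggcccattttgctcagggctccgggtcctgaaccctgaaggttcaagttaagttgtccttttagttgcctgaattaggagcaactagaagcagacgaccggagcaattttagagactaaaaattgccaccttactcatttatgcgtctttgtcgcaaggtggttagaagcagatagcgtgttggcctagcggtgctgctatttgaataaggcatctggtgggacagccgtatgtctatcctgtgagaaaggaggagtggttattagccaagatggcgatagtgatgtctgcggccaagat
Bckdhb promoter: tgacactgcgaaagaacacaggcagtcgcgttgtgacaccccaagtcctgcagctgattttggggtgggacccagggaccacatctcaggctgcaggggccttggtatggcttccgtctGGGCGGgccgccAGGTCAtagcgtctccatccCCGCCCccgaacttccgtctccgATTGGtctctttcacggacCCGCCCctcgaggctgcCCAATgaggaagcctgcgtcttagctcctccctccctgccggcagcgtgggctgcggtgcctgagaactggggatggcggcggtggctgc
The Bckdha stretch is 48% G and C and holds none of the 5 motifs. The Bckdhb stretch is 65% G and C, against a median of 52.7% over all promoter stretches of this length. It holds 3 GC boxes, 2 CCAAT boxes and 1 half-site, all between 131 and 40 bases before the start. Of 32851 promoter stretches, 35.7% hold a GC box, 37.4% a CCAAT box, 16.3% the half-site, 7.15% the E box and 0.423% the ERR element. Among the 9 members with a promoter entry (Dbt has none), 5 hold a GC box, 5 a CCAAT box, 2 the half-site (Bckdhb and Hibadh), 0 the E box and 0 the ERR element. A match here is a run of letters and not a binding site, and the lack of a match says nothing about a factor.

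Library totals ranged from 3315921 to 7089226 counts, and the member counts behind the values were small: 21 to 77 per mouse for Bcat2, 22 to 108 for Bckdhb, 72 to 228 for Bckdha and 248 to 573 for Hibadh. All 8 skeletal muscle markers, among them Ckm and Acta1, were detected in every group, and liver markers summed to at most 1.24 CPM (read counts scaled to a common library size), with Ttr and Serpina1c at 0 counts in every mouse. Fibre type and mitochondrial genes covered different ranges in the groups. The summed level of 12 slow fibre genes was 50.3 to 66.1 CPM in WT controls, 149 to 861 in WT runners, 215 to 548 in FLExDUX4 controls and 68.7 to 1133 in FLExDUX4 runners. The summed level of 13 nuclear genes for mitochondrial proteins was 5487 to 5985, 6432 to 8725, 5953 to 6418 and 5654 to 8224 CPM in the same order. For running in WT, the median log2 fold change was 3.08 over 12 slow fibre genes, -0.40 over 11 fast fibre genes, 0.39 over 13 mitochondrial genes, 0.90 over 8 endothelial markers, 1.12 over 5 erythroid markers and -0.29 over 8 skeletal muscle markers. It was -0.21 over 7 fibroblast, 0.03 over 8 macrophage and -0.48 over 6 adipocyte markers, and 1 gene of all these lists, an endothelial one, was called in that comparison. In whole muscle, fewer cells of a type and less RNA per cell cannot be told apart.

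In WT mice the transcript of the E1α subunit was called higher with running, close to the threshold and not under every alternative. The other 9 genes did not pass the test. Across the 10 genes, log2 fold changes ran from -0.25 for Bckdhb to 0.88 for Bckdha, 8 of 10 were above 0, and their median was 0.20. Over all tested genes the median was 0.01 and 51.3% were above 0. A call required an adjusted p under 0.05 (Benjamini-Hochberg, all 11088 genes) in edgeR's quasi-likelihood test. By that rule 1 of 10 members was called, against 0.496% of tested genes, or 0.397% counting those called higher. WT runners and WT controls did not overlap for 1 of 10 members, while 10.3% of tested genes had groups that did not overlap. The calls over all genes were 44 higher and 11 lower. With library sizes taken from the spike-in RNA they were 604 higher and 2 lower, the median of all genes shifted to 0.38, and all 10 members lay above 0 with a median of 0.58. Spike-in reads were 1.28% to 1.53% of counts in WT controls and 1.00% to 1.15% in WT runners.

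Bckdha (ENSMUSG00000060376, chromosome 7, 25629946 to 25658981 on the minus strand of GRCm38, the build of all gene positions here) encodes the E1α chain, the part that the kinase phosphorylates. In WT controls it stood at 20.8, 16.9 and 21.7 CPM. In WT runners it stood at 43.3, 33.2, 36.5 and 32.2 CPM. Every WT runner was above every WT control. FLExDUX4 controls had 31.6, 29.2 and 29.3 CPM, and FLExDUX4 runners had 26.6, 34.4, 35.8 and 24.7 CPM. All 11 mice outside the WT control group, the lowest at 24.7 CPM, were above the highest WT control at 21.7 CPM. How many of all tested genes show this split was not counted. WT controls were the low group, WT runners lay above all FLExDUX4 controls, and FLExDUX4 runners overlapped both. Group means were 19.8 ± 2.57 (SD, n = 3) CPM in WT controls, 36.3 ± 5.03 (n = 4) in WT runners, 30.02 ± 1.33 (n = 3) in FLExDUX4 controls and 30.4 ± 5.57 (n = 4) in FLExDUX4 runners.

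**Figure D1:**
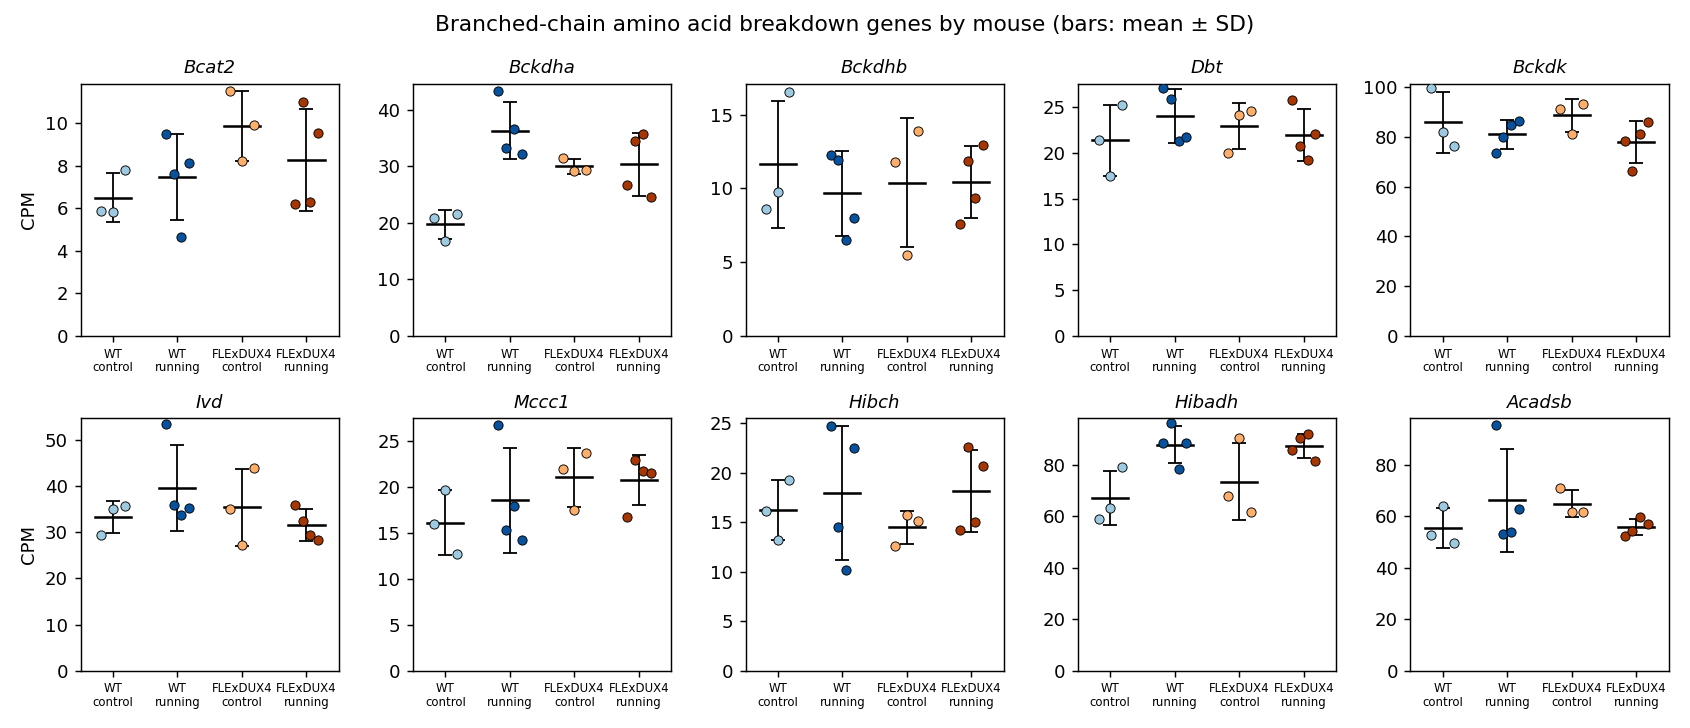
CPM of each of the 10 genes (1 panel a gene, vertical axis from 0) in every mouse, with 1 point per mouse and bars for the mean ± SD of each group. In the Bckdha panel the 3 WT controls lie at 16.9 to 21.7 CPM, below all 11 other mice, and in the Ivd and Acadsb panels 1 WT runner stands above its group at 53.4 and 95.6 CPM.

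In WT mice the Bckdha change was 0.88 ± 0.21 (SE) on the log2 scale, a 1.84-fold rise with a 95% interval of 0.46 to 1.30 on the log2 scale (edgeR adjusted p = 0.0411). The authors' deposited table gives Bckdha a log2 fold change of -0.75 for WT control over WT running, with an adjusted p of 0.00405. The call was close to the threshold: it was lost with limma-voom (adjusted p = 0.0623), with only the 2 WT groups in the edgeR fit (0.0521), and in edgeR without WT control 1 (0.184), WT control 2 (0.212), WT control 3 (0.119), WT running 1 (0.141) or WT running 4 (0.103). Over the 7 edgeR fits that each left out 1 WT mouse its log2 fold change ran from 0.77 to 0.95, and DESeq2 gave 0.88 (adjusted p = 0.00645). The 3′ end of Bckdha is overlapped on the opposite strand by B3gnt8, a glycosyltransferase gene, over 5155 bases. Whether counting used the strand is not given in the sources used here, so reads from the shared bases cannot be told apart. B3gnt8 had 130 counts over the 14 mice, 0 to 19 in WT controls and 6 to 20 in WT runners, and Bckdha had 2034 in all. The part of B3gnt8 reads in the Bckdha result was not tested.

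In FLExDUX4 mice the running difference of Bckdha was 0.01 ± 0.20, with a 95% interval of -0.39 to 0.41 (edgeR adjusted p = 0.997). The authors' deposited table gives Bckdha -0.0026 for FLExDUX4 control over FLExDUX4 running, with an adjusted p of 0.999. The interaction, which is the running difference in FLExDUX4 less that in WT, was -0.87 ± 0.28 with an interval of -1.45 to -0.29. Its unadjusted p was 0.0042 and its adjusted p 0.954 in edgeR, so the difference between genotypes did not pass the test. Between the genotypes without running, the FLExDUX4 value of Bckdha less the WT value was 0.60 ± 0.22, with groups that did not overlap, and this too missed the threshold (edgeR adjusted p = 0.969). Between the genotypes with running it was -0.27 ± 0.18 (edgeR adjusted p = 0.999). The running comparison in WT and the genotype comparison in controls use the same 3 WT controls, so their values are not independent of each other.

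Bckdhb (chromosome 9, 83925145 to 84124240, plus strand) encodes the β chain that pairs with Bckdha in E1. It stood at 8.62, 9.72 and 16.5 CPM in WT controls and at 12.3, 11.9, 6.5 and 7.96 CPM in WT runners. Its FLExDUX4 controls had 11.8, 5.49 and 13.9 CPM and its FLExDUX4 runners 7.58, 11.8, 9.33 and 12.97 CPM. All 4 groups overlapped. The running difference of Bckdhb was -0.25 ± 0.34 in WT, with an interval of -0.94 to 0.44, and -0.01 ± 0.34 in FLExDUX4 (edgeR adjusted p = 0.873 and 0.999). With spike-in library sizes the WT value of Bckdhb was 0.12, where the median of all genes was 0.38. Whether the changes of Bckdha and Bckdhb differed from each other was not tested.

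Dbt (chromosome 3, 116513070 to 116549981, plus strand) encodes E2, the core of the complex that receives the acyl group from E1. Its levels were 21.5, 17.5 and 25.3 CPM in WT controls, 27.1, 25.9, 21.3 and 21.8 CPM in WT runners, 20.03, 24.2 and 24.6 CPM in FLExDUX4 controls and 25.9, 20.7, 19.3 and 22.1 CPM in FLExDUX4 runners. These groups overlapped throughout. For Dbt, running differed by 0.17 ± 0.22 in WT and -0.06 ± 0.22 in FLExDUX4 (edgeR adjusted p = 0.868 and 0.983). With 1 mouse left out, the WT value of Dbt ran from 0.04 (without WT control 2) to 0.30 (without WT control 3), and the FLExDUX4 value from -0.15 to -0.0029. The third component, Dld, is shared with the pyruvate and α-ketoglutarate dehydrogenases and is given with the other pathway genes.

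Bckdk (chromosome 7, 127904082 to 127910221, plus strand) encodes the kinase that switches E1 off, so Bckdha was also set against it. It stood at 99.7, 81.9 and 76.1 CPM in WT controls and at 73.4, 79.7, 84.7 and 86.5 CPM in WT runners. FLExDUX4 controls had 91.4, 81.0 and 93.4 CPM and FLExDUX4 runners 78.3, 66.2, 81.0 and 86.1 CPM. The ranges overlapped in every comparison. The running difference of Bckdk was -0.08 ± 0.15 in WT, with an interval of -0.39 to 0.22, and -0.18 ± 0.15 in FLExDUX4 (edgeR adjusted p = 0.911 and 0.883). With spike-in library sizes the WT value of Bckdk was 0.28, where the median of all genes was 0.38.

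Counts of Bckdha per 100 counts of Bckdk need no scaling between libraries. They were 20.9, 20.6 and 28.5 in WT controls and 59.03, 41.65, 43.2 and 37.2 in WT runners. They were 34.5, 36.0 and 31.4 in FLExDUX4 controls and 34.0, 52.0, 44.2 and 28.6 in FLExDUX4 runners. Each of the 3 WT controls was below every other mouse by this measure, with the highest WT control at 28.5 and the lowest FLExDUX4 runner at 28.6. Group means were 23.3 ± 4.46, 45.3 ± 9.52, 34.0 ± 2.35 and 39.7 ± 10.45 (SD) in the same order. Counts of Bckdha per count of Bckdhb averaged 1.82 ± 0.558 in WT controls, 4.00 ± 1.20 in WT runners, 3.37 ± 1.71 in FLExDUX4 controls and 3.04 ± 0.852 in FLExDUX4 runners. Both ratios are given as descriptions, without a test, and counts of 3′ ends from different genes do not give the ratio of the proteins.

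**Figure D2:**
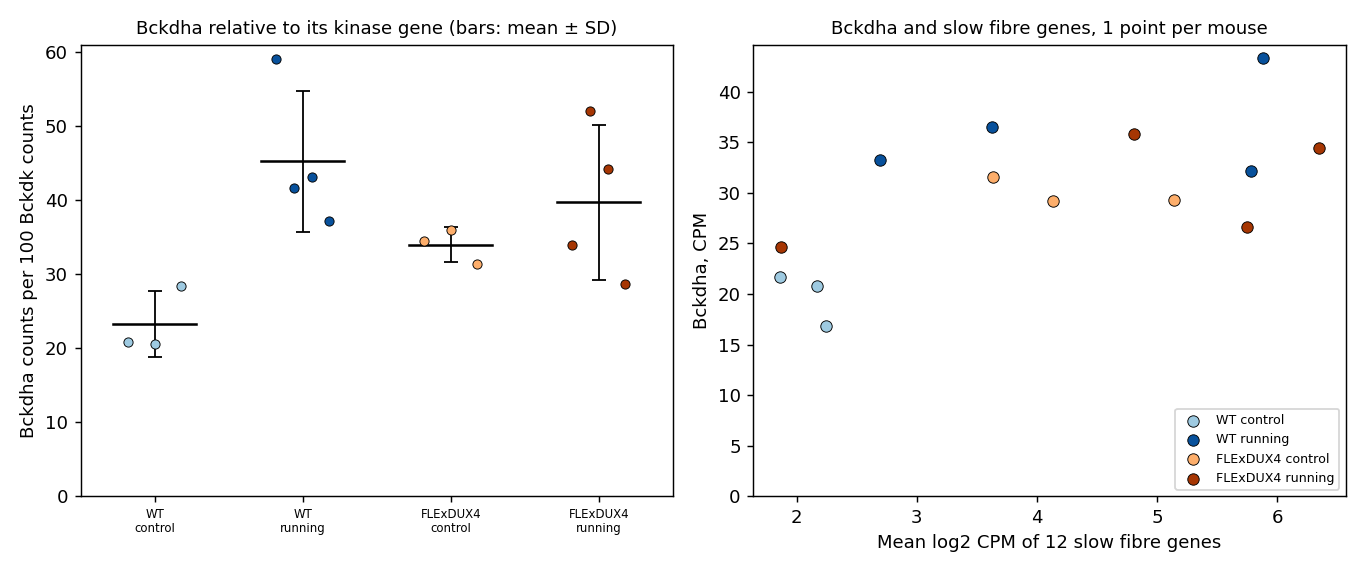
Bckdha counts per 100 Bckdk counts in each mouse by group, with bars for the mean ± SD, and Bckdha in CPM against the mean log2 CPM of 12 slow fibre genes, with 1 point per mouse. WT controls hold the lowest ratios (20.6 to 28.5) and the lowest Bckdha levels. Among other mice, 24.7 CPM of Bckdha pairs with a slow fibre level of 1.87 (FLExDUX4 running 4) and 43.3 CPM with 5.89 (WT running 1). In contrast, 26.6 CPM pairs with 5.75 (FLExDUX4 running 1) and 33.2 CPM with 2.69 (WT running 2).

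Slow fibre genes were also lowest in the WT controls as a group. The mean log2 CPM of the 12 slow fibre genes was 1.86 to 2.24 in WT controls, 2.69 to 5.89 in WT runners, 3.64 to 5.14 in FLExDUX4 controls and 1.87 to 6.34 in FLExDUX4 runners. Single mice kept 1 order in both measures only in part. FLExDUX4 running 4, at a slow fibre level of 1.87 and 24.7 CPM of Bckdha, was lowest in both among mice outside the WT controls. WT running 1 paired 5.89 with the highest Bckdha level, 43.3 CPM, and FLExDUX4 running 2 paired 6.34 with 34.4 CPM. FLExDUX4 running 1, in contrast, paired 5.75 with 26.6 CPM. WT running 2 paired 2.69 with 33.2 CPM, and WT running 3 paired 3.63 with 36.5 CPM. Summed endothelial markers (8 of 8 detected) were 150 to 156 CPM in WT controls, 212 to 316 in WT runners, 175 to 213 in FLExDUX4 controls and 139 to 245 in FLExDUX4 runners. Summed erythroid markers (5 of 5) were 441 to 955, 1134 to 1840, 672 to 990 and 478 to 1743 CPM in the same order. The part of these differences in the Bckdha result was not tested.

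Bcat2 (chromosome 7, 45570153 to 45589711, plus strand) encodes the mitochondrial transaminase that opens the pathway in muscle. It had 5.89, 5.83 and 7.82 CPM in WT controls, 9.5, 7.64, 4.67 and 8.14 CPM in WT runners, 11.5, 8.23 and 9.91 CPM in FLExDUX4 controls and 6.22, 11.03, 6.32 and 9.55 CPM in FLExDUX4 runners. All FLExDUX4 controls were above all WT controls, and the running groups overlapped their controls. The genotype difference of Bcat2 in controls was 0.61 ± 0.38 (edgeR adjusted p = 0.972), while running differed by 0.21 ± 0.36 in WT and -0.25 ± 0.34 in FLExDUX4 (0.906 and 0.953). The WT value had an interval of -0.51 to 0.93, with 23 to 48 counts in each of the 7 WT mice.

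Ivd and Mccc1 act in the leucine branch: Ivd oxidises isovaleryl-CoA, and Mccc1 is the biotin-carrying chain of the methylcrotonyl-CoA carboxylase that follows. Ivd lies on chromosome 2 at 118861954 to 118882909 (plus strand) and Mccc1 on chromosome 3 at 35959312 to 36000678 (minus strand). Ivd had 29.4, 35 and 35.8 CPM in WT controls, 53.4, 36.0, 33.7 and 35.2 CPM in WT runners, 35.1, 27.2 and 44.0 CPM in FLExDUX4 controls and 36.0, 32.6, 29.5 and 28.4 CPM in FLExDUX4 runners. WT running 1 stood far above the other mice of its group, and all groups overlapped. The running difference of Ivd was 0.25 ± 0.20 in WT (edgeR adjusted p = 0.759), 0.07 without WT running 1, and -0.17 ± 0.20 in FLExDUX4 (0.942). Mccc1 ranged from 12.6 to 26.7 CPM over the 14 mice with overlapping groups, and differed with running by 0.19 ± 0.25 in WT and -0.03 ± 0.25 in FLExDUX4 (edgeR adjusted p = 0.870 and 0.995).

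Hibch and Hibadh act in the valine branch: Hibch frees 3-hydroxyisobutyrate from its CoA ester, and Hibadh oxidises it. Hibch lies on chromosome 1 at 52844929 to 52920986 (plus strand) and Hibadh on chromosome 6 at 52546228 to 52640389 (minus strand). Hibadh had 58.9, 63.3 and 79.1 CPM in WT controls, 88.7, 96.1, 78.4 and 88.5 CPM in WT runners, 68.0, 90.3 and 61.7 CPM in FLExDUX4 controls and 85.7, 90.4, 91.8 and 81.7 CPM in FLExDUX4 runners. In each genotype 1 control reached into the range of the runners. Group means of Hibadh were 67.1 ± 10.6, 87.9 ± 7.27, 73.4 ± 15.0 and 87.4 ± 4.64 CPM (SD, n = 3, 4, 3 and 4). The running difference of Hibadh was 0.39 ± 0.16 in WT and 0.25 ± 0.16 in FLExDUX4, neither past the threshold (edgeR adjusted p = 0.330 and 0.825). Averaged over genotype it was 0.32 ± 0.11, at an unadjusted p of 0.00628 and an adjusted p of 0.162 in edgeR. Besides Bckdha, Hibadh was the other member with an unadjusted p under 0.05 for running. Of 11088 tested genes, 1182 were under 0.05 in WT and 1328 averaged over genotype.

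Hibch ranged from 10.2 to 24.7 CPM over the 14 mice, and its groups overlapped. Its running difference was 0.16 ± 0.28 in WT and 0.32 ± 0.28 in FLExDUX4 (edgeR adjusted p = 0.911 and 0.892). The valine branch genes were 2 of the 3 members whose estimate for FLExDUX4 runners lay above 0, beside the 0.01 of Bckdha.

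Acadsb (chromosome 7, 131410601 to 131448944, plus strand) oxidises the short branched-chain acyl-CoA made from isoleucine. It had 52.6, 64.2 and 49.6 CPM in WT controls, 95.6, 52.9, 54.0 and 62.6 CPM in WT runners, 71.1, 61.8 and 61.7 CPM in FLExDUX4 controls and 52.5, 54.4, 59.6 and 57.0 CPM in FLExDUX4 runners. All FLExDUX4 runners were below all FLExDUX4 controls, while the WT groups overlapped and WT running 1 stood apart at 95.6 CPM. For Acadsb, running differed by -0.21 ± 0.18 in FLExDUX4 and 0.25 ± 0.18 in WT (edgeR adjusted p = 0.886 and 0.689), and the WT value was 0.02 without WT running 1. Their difference, the interaction, was -0.47 ± 0.25 (edgeR adjusted p = 0.954).

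In FLExDUX4 mice none of the 10 genes passed the test for running: 0 were called by edgeR, where 0% of tested genes were called. An unadjusted p under 0.05 was found for 0 members and for 738 of 11088 tested genes. DESeq2 and limma-voom also called 0 members. Of the 10 genes 3 were above 0, with a median of -0.05, while 51.1% of tested genes were above 0, and with spike-in library sizes 5 of 10 members were above 0. The groups did not overlap for 1 of 10 members, Acadsb, against 7.17% of tested genes. The smallest adjusted p among members was 0.825. The 95% interval of Bckdha reached 0.41, and that of Bcat2 spanned -0.95 to 0.45 on the log2 scale.

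**Figure D3:**
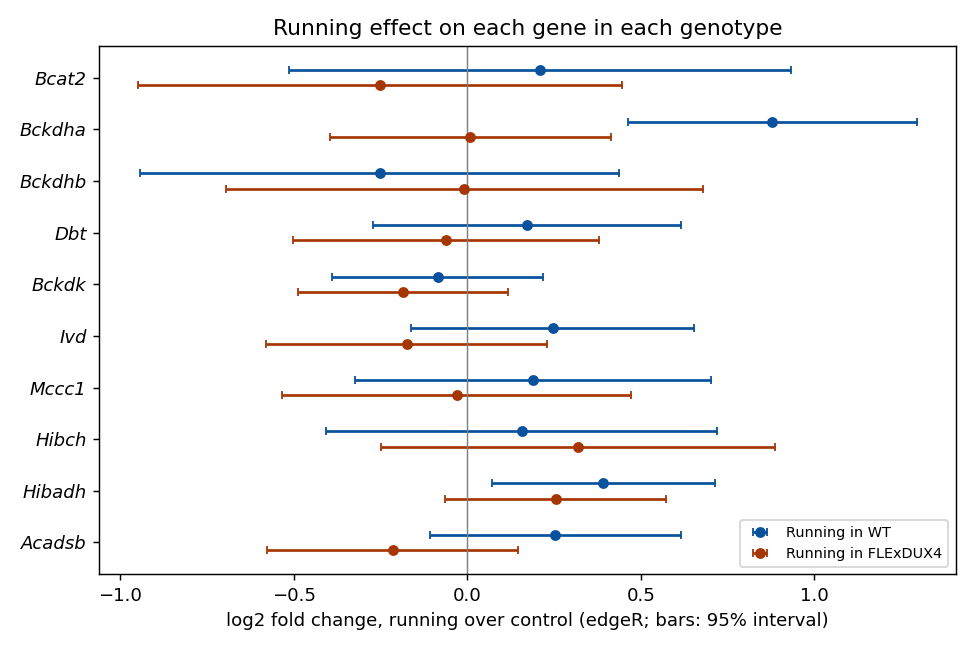
Log2 fold change of running over control from edgeR for each of the 10 genes in WT and in FLExDUX4 mice, with bars for the 95% interval. Bckdha lies at 0.88 in WT and at 0.01 in FLExDUX4, and the WT bars of Bckdha (0.46 to 1.30) and Hibadh (0.07 to 0.71) stay above 0.

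Averaged over genotype, 7 of 10 estimates for running were above 0, with a median of 0.05 and a range of -0.13 for Bckdk to 0.44 for Bckdha. None was called, where 0.857% of tested genes were. Of the members 2 had an unadjusted p under 0.05, as had 1328 of 11088 tested genes. Bckdha was at 0.44 ± 0.14 (edgeR adjusted p = 0.126). DESeq2 and limma-voom called 0 members as well, while edgeR with spike-in library sizes called Bckdha at 0.65 and Hibadh at 0.51 (adjusted p = 0.0138 and 0.0202) with all 10 members above 0 and a median of all genes at 0.22. The calls over all genes were 61 higher and 34 lower, and 423 higher and 11 lower with spike-in library sizes.

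The genotype comparisons called no member in edgeR, DESeq2 or limma-voom. Over all genes DESeq2 called 2 in controls, 0 in runners and 0 averaged over running, and limma-voom called 0 in each. In controls 1 member (Bckdha) had an unadjusted p under 0.05, as had 554 of 11088 tested genes, and 0% of tested genes were called by edgeR. Of the estimates in controls, 8 of 10 were above 0 with a median of 0.12. With spike-in library sizes all 10 were above 0, with a median of 0.44 against 0.31 over all genes. The groups did not overlap for 2 of 10 members, Bckdha and Bcat2, against 11.4% of tested genes. In runners 4 of 10 estimates were above 0, from -0.33 for Ivd to 0.16 for Mccc1. There, 0 members had an unadjusted p under 0.05, against 350 of 11088 tested genes, and edgeR called 0% of tested genes. The groups overlapped for all 10 members, where 2.51% of tested genes had groups that did not. Averaged over running, genotype estimates ran from -0.11 for Ivd to 0.38 for Bcat2, and 0% of tested genes were called by edgeR. An unadjusted p under 0.05 was found for 0 members and for 418 of 11088 tested genes. For the interaction 8 of 10 estimates were below 0, with a median of -0.23 and a range of -0.87 to 0.24. With spike-in library sizes all 10 were below 0, with a median of -0.55 against -0.33 over all genes. Of the members' interaction estimates 1 (Bckdha) had an unadjusted p under 0.05, against 537 of 11088 tested genes. EdgeR, DESeq2 and limma-voom called 0 of the 10. Over all tested genes edgeR called 0% for the interaction, and DESeq2 called 1 gene.

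WT running 1 held the highest level of all 14 mice for 6 of 10 members: Bckdha, Dbt, Ivd, Mccc1, Hibch and Acadsb. Its mean z-score over the 10 genes was 1.26, while the means of the 4 groups ran from -0.46 in WT controls to 0.23 in WT runners. Without it the members' median running difference in WT was 0.05 in place of 0.20, and 6 of 10 were above 0 in place of 8. Bckdha was then at 0.78 and no longer called (edgeR adjusted p = 0.141), and Hibch and Mccc1 were at -0.03 and -0.04.

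The pattern of the 10 genes over the 14 mice, taken as their mean z-score of log2 CPM, was set against every other tested gene. The nearest 5 were Mfsd7b, Eif4e2, D10Jhu81e, Srr and Angptl7, whose z-scores differed from it by 0.44 to 0.48 on average. The members themselves differed from their own mean by 0.58 (Bcat2) to 0.86 (Bckdk). The kinase gene Bckdk was the member farthest from the mean of the set. This likeness is a description chosen by searching all tested genes.

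The other enzymes of the pathway were read from a list of 19, of which 18 were tested (Bcat1, the cytosolic transaminase, had too few counts). In WT mice edgeR called 1 of 18 higher with running: Hadhb, the β chain of the mitochondrial trifunctional protein that also serves fatty acid oxidation. EdgeR called 0.496% of all tested genes in this comparison. DESeq2 called 3 of the 18 (Hadha, Hadhb and Mcee) among 202 genes in all, and limma-voom 0 of the 18 among 23. Of the 18, 14 were above 0 with a median of 0.38. An unadjusted p under 0.05 in edgeR was found for 7 of them, against 1182 of 11088 tested genes. Hadhb had 46.5, 42.6 and 57.8 CPM in WT controls, 137, 66.4, 73.3 and 118 CPM in WT runners, 72.7, 79.3 and 73.1 CPM in FLExDUX4 controls and 72.1, 103, 71.4 and 58.9 CPM in FLExDUX4 runners. The WT controls were below all other mice, a split that was not counted over all tested genes. The running difference of Hadhb was 1.02 ± 0.22 in WT (edgeR adjusted p = 0.0411) and 0.02 ± 0.21 in FLExDUX4 (0.995), and the WT call was lost with limma-voom, with the 2 WT groups alone and without any of the 3 WT controls, WT running 1 or WT running 4 (0.0982 to 0.212).

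In FLExDUX4 mice 0 of the 18 were called by edgeR, DESeq2 or limma-voom, and the median was 0.03. There, 0 of the 18 had an unadjusted p under 0.05, against 738 of 11088 tested genes. Averaged over genotype 13 of 18 were above 0, and 8 had an unadjusted p under 0.05, against 1328 of 11088 tested genes. EdgeR and limma-voom called 0 of the 18 and DESeq2 2 (Hadha and Hadhb), beside 0.857% of tested genes called by edgeR and 278 genes called by DESeq2. Of these 18 genes, Dld, the E3 chain of the complex, was at 0.42 ± 0.13, Echs1, an enoyl-CoA hydratase, at 0.44 ± 0.14, and Mcee, the methylmalonyl-CoA epimerase, at 0.39 ± 0.13 (edgeR adjusted p = 0.104, 0.118 and 0.154). Ppm1k, the phosphatase that switches the complex on, was chosen after its values were seen. Its running difference was 0.82 ± 0.31 in WT and -0.03 ± 0.30 in FLExDUX4 (edgeR adjusted p = 0.292 and 0.995).

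**Figure D4:**
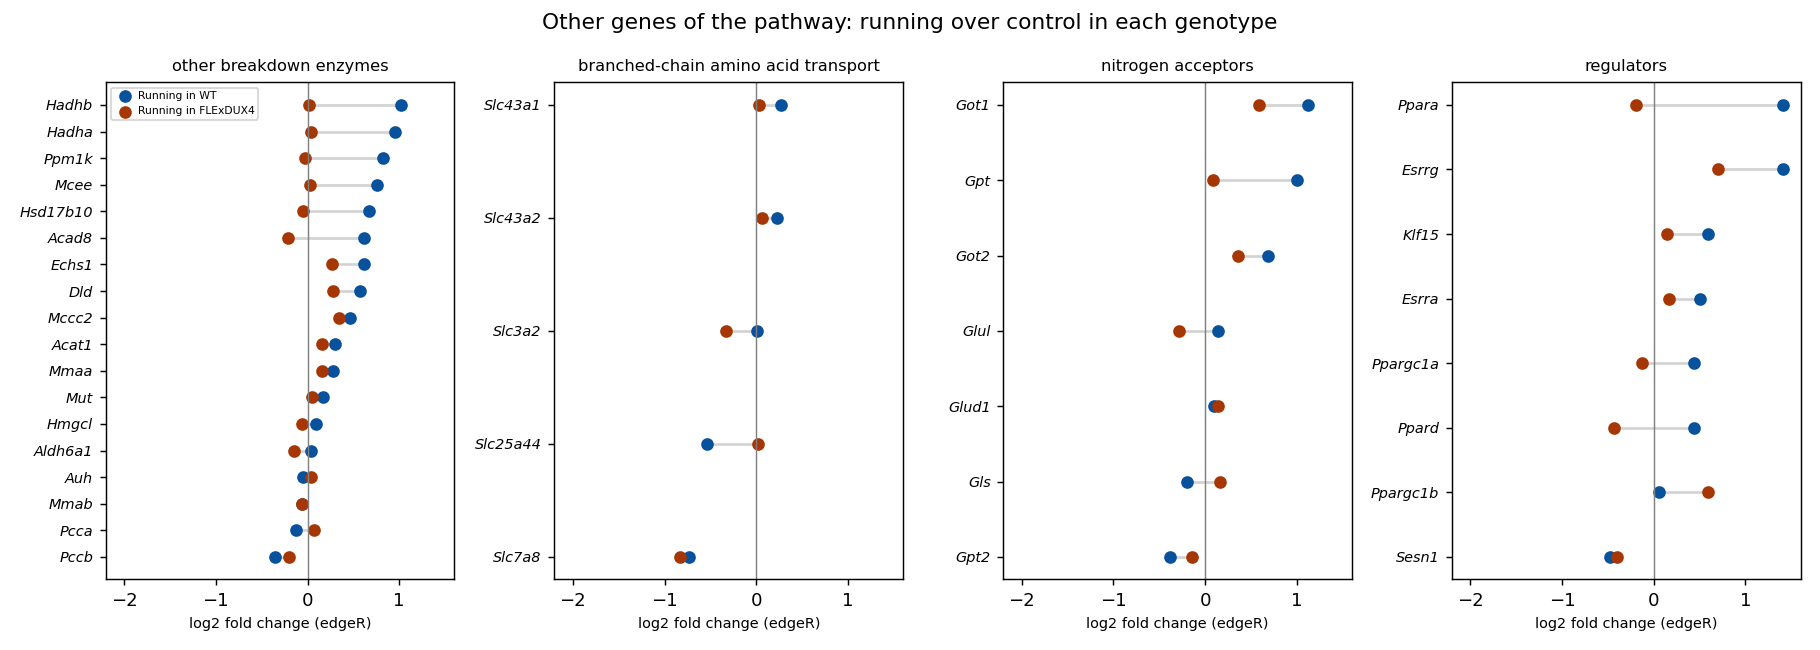
Log2 fold change of running over control from edgeR in WT and in FLExDUX4 mice for the tested genes of 4 related lists, with 1 row a gene; Esrrb is left out because all 3 WT controls had 0 counts. Got1 and Hadhb, at 1.12 and 1.02, are the genes plotted that edgeR called in WT mice, and no gene plotted was called in FLExDUX4 mice.

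The enzymes that take up the amino nitrogen formed a list of 7, all tested. For running, edgeR and limma-voom called 1 of them higher, Got1, the cytosolic aspartate transaminase, and DESeq2 called Got2 as well. Over all tested genes edgeR called 0.496% in WT and 0.857% averaged over genotype, and DESeq2 called 202 and 278 genes. Got1 had 171, 155 and 186 CPM in WT controls, 474, 380, 235 and 395 CPM in WT runners, 178, 208 and 237 CPM in FLExDUX4 controls and 324, 421, 308 and 198 CPM in FLExDUX4 runners. WT runners were all above WT controls, and FLExDUX4 running 4 lay within the range of its controls. Got1 rose by 1.12 ± 0.23 in WT and by 0.85 ± 0.16 averaged over genotype (edgeR adjusted p = 0.043 and 0.0227), while FLExDUX4 mice alone gave 0.59 ± 0.23 (0.710). Its WT call held without WT running 3 (0.000434) and was lost without each of the other 6 WT mice in turn (0.0845 to 0.212). The averaged call of Got1 was lost without WT control 1, WT control 2, WT running 4 or FLExDUX4 control 1 (edgeR adjusted p = 0.0581 to 0.0861), and with FLExDUX4 control 1 and WT running 2 both left out (0.111).

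The mitochondrial aspartate transaminase Got2 was at 0.53 ± 0.15 averaged over genotype, and the alanine transaminases Gpt and Gpt2 were at 0.55 ± 0.26 and -0.26 ± 0.14 (edgeR adjusted p = 0.11, 0.379 and 0.473). Gpt2 is the mitochondrial form and Gpt the cytosolic one. Of the 7 genes of this list, 5 were above 0 in WT runners and 5 in FLExDUX4 runners.

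Transporters of branched-chain amino acids formed a list of 7, of which 5 were tested and 0 called in any comparison by edgeR, DESeq2 or limma-voom. Over all tested genes edgeR called 0.496% for running in WT, 0.857% averaged over genotype and 0% in the other comparisons. Averaged over genotype, 0 of the 5 had an unadjusted p under 0.05, against 1328 of 11088 tested genes. Slc7a8, a light chain of the plasma membrane exchanger, was at -0.78 ± 0.41, or -0.33 without FLExDUX4 control 3, and its partner heavy chain Slc3a2 was at -0.16 ± 0.16 (edgeR adjusted p = 0.461 and 0.765). Slc25a44, the carrier that brings branched-chain amino acids into mitochondria, was at -0.54 ± 0.23 in WT and 0.02 ± 0.23 in FLExDUX4 (edgeR adjusted p = 0.379 and 0.996). Slc43a2, a facilitated transporter of large neutral amino acids, was at 0.15 ± 0.25 averaged over genotype (0.892).

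Regulators known to act on oxidative metabolism or on this pathway formed a list of 10: transcription factors, coactivators and the sestrin genes Sesn1 and Sesn2. Of these, 9 were tested and 0 called by edgeR or limma-voom, while DESeq2 called 1 for running in WT, Ppara. In that comparison edgeR called 0.496% of all tested genes and DESeq2 called 202 genes. Averaged over genotype 8 of the 9 regulators were above 0, and 2 had an unadjusted p under 0.05, against 1328 of 11088 tested genes. Ppara, a fatty acid receptor, was at 1.41 ± 0.38 in WT and -0.20 ± 0.34 in FLExDUX4 (edgeR adjusted p = 0.0747 and 0.969). Esrra and Ppargc1b, an estrogen-related receptor and a coactivator, were at 0.33 ± 0.17 and 0.32 ± 0.18 averaged over genotype (0.464 and 0.493). Esrrb, another receptor of that family, had 0 counts in all 3 WT controls and 57, 8, 5 and 11 in WT runners. It had 8, 0 and 24 counts in FLExDUX4 controls and 6, 34, 2 and 17 in FLExDUX4 runners. Against a floor of 3 counts over the WT control group, the Esrrb mean in WT runners was 16.6-fold higher, or 6.19-fold without WT running 1. That floor covers counting error and not the spread between mice, and Esrrb was not called.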

How the data were processed

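RNA of whole triceps was read from 3′ ends (QuantSeq FWD), per the labels' protocols. The authors deposited raw read counts per gene and mouse, with log2 fold changes and p-values of their own comparisons beside them in the same table. The tools STAR 2.5.3a, featureCounts 1.6.2, cutadapt 1.16, FastQC 0.11.7 and DESeq2 and the builds GRCm38 and GRCh38 appear in the submitters' processing notes, with no roles given. Annotation release, strand setting and handling of multi-mapped reads are not given in the sources used here. Gene positions come from GENCODE M21 on GRCm38, where all 10 members have the listed start.

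The analysis started from the counts, with 92 ERCC and 7 SIRV spike-in rows set aside. In edgeR 4.0.16 (R 4.3.3), filterByExpr with a minimum count of 10 left 11088 genes, TMM factors scaled the libraries, and 1 robust quasi-likelihood fit with a mean per group covered all 14 mice and 7 contrasts. P-values were Benjamini-Hochberg adjusted over all tested genes. CPM uses TMM-scaled library sizes, and the SE of a log2 fold change is its size divided by the root of its F statistic. The z-scores use log2 CPM with a prior count of 2. No replicates looked duplicated (lowest chi-square per degree of freedom 5.89 over 18 pairs). Counts carry no molecular identifiers, so floors cover counting error only.

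The 10 genes, the related lists and the tests were chosen with earlier results of these data known. Named were the members, called genes of the 4 related lists and those with the smallest p for running averaged over genotype, up to 4 a list. Alternatives were DESeq2 1.42.0, limma-voom (limma 3.58.1), RLE factors, spike-in library sizes, library sizes without mitochondrial genes and Gm42418, no filter, only the groups compared, and mice left out.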

Additional observations from a re-analysis of the deposited data

Results flagged for a closer look

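Ivd stood at 53.4 CPM in WT running 1, far from the other 3 WT runners at 33.7, 35.2 and 36.0 CPM. The gap to its nearest neighbour was 0.881 of the range of the group, above Dixon's 95% critical value for 4 samples. This was the case for 1 of 20 member groups of 4 mice examined, and chance alone passes that value in about 1 of 20. Ivd is the dehydrogenase of the leucine branch, and the same mouse held the highest level of 6 of the 10 genes.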

How the results depend on the processing

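No paired analysis was possible because the labels give no shared replicate numbers, and the mice are numbered in the order of the records. For running in WT, 0 members were called with limma-voom, 0 with only the groups compared and 0 to 1 with 1 mouse left out, while spike-in library sizes called 2 (Bckdha 1.26, Hibadh 0.75). For running averaged over genotype they called 2. DESeq2, RLE factors, no low-count filter, library sizes without mitochondrial genes and Gm42418, and FLExDUX4 control 1 with WT running 2 left out all called Bckdha in WT. The other comparisons called 0 members under every alternative run. The cause of these differences was not tested. The fit of only the groups compared was not run for the averages and the interaction, which need all 4 groups.

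Some estimates near 0 turned sign. In FLExDUX4, Bckdha was -0.0055 with DESeq2, -0.0383 with limma-voom and -0.002 with RLE factors, and Hadhb was -0.0244 with limma-voom. With spike-in library sizes the signs turned for Bckdhb (0.12 in WT, 0.0854 in FLExDUX4), Bckdk (0.28 in WT), Mccc1 (0.0317 in FLExDUX4) and Slc3a2 (0.0312 averaged). The median of all genes was then 0.38 in WT, 0.05 in FLExDUX4 and 0.22 averaged over genotype. With FLExDUX4 control 1 and WT running 2 left out, FLExDUX4 values were 0.0809 for Bckdhb and 0.0047 for Mccc1. With 1 mouse left out, FLExDUX4 values ran from -0.0769 to 0.10 for Bckdha, -0.29 to 0.29 for Bckdhb, -0.16 to 0.13 for Hadhb, -0.32 to 0.0238 for Ivd and -0.14 to 0.0716 for Mccc1. WT values ran from -0.43 to 0.0751 for Bckdhb, -0.16 to 0.0342 for Bckdk, -0.0335 to 0.35 for Hibch and -0.0399 to 0.36 for Mccc1.

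Other values that kept their sign but moved by over 1.5 times with 1 mouse left out were, in WT, Acadsb (0.0248 to 0.37), Bcat2 (0.0781 to 0.38), Dbt (0.044 to 0.30) and Ivd (0.0681 to 0.31). In FLExDUX4 they were Bcat2 (-0.41 to -0.13), Bckdk (-0.24 to -0.12), Dbt (-0.15 to -0.0029), Hibadh (0.14 to 0.44) and Hibch (0.20 to 0.42). Averaged over genotype they were Gpt2 (-0.36 to -0.17), Slc25a44 (-0.42 to -0.18), Slc3a2 (-0.26 to -0.10), Slc43a2 (0.048 to 0.30) and Slc7a8 (-1.01 to -0.33), and between genotypes in runners Bckdha (-0.35 to -0.17).

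Over all genes, running in WT called 55, against 202 with DESeq2, 23 with limma-voom, 606 with spike-in library sizes, 217 without the filter and 0 to 197 with 1 mouse left out. Running averaged called 95, against 278 with DESeq2, 434 with spike-in library sizes, 291 without the filter, 24 with FLExDUX4 control 1 and WT running 2 left out and 17 to 286 with 1 mouse left out. Comparisons that called 0 gave at most 24 under an alternative.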
